A study of Mus musculus with 45 samples.

Results

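*Mtus1*, *Mkln1*, *Osbpl8* and *Zfp534* are 4 of the 26214 genes in the RNA table of mouse fully grown oocytes (FGOs) and late two-cell embryos. They were chosen by symbol because their RNA was lower in FGOs expressing the histone mutant H3.3K36M and also lower in the embryos that grew from such oocytes, so those differences are given as descriptions without a test. The RNA libraries were 3 of control FGOs and 3 of K36M FGOs, each a pool of oocytes, and 16 single embryos, 8 from control and 8 from K36M oocytes. Control replicate 4 of the embryos was set aside by the study and was not used to choose the genes, which left 21 libraries, and its values are given separately. Replicates are called by the numbers of the labels.

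Control females were H3f3b K36M-flox/+ and K36M females were H3f3b K36M-flox/+; Gdf9-Cre, so every oocyte donor carried the floxed allele and the donors differed in Cre, which the oocyte-specific *Gdf9* promoter drives. The strain was given as hybrid C57BL/6 / 129 for FGOs, taken at 3 to 4 weeks of age, and as hybrid C57BL/6 / 129 X JF-1 for embryos. The embryos came from superovulated females by in vitro fertilisation with wild-type sperm and were frozen at 31 to 32 h after it. The genotype of each embryo was not given in the labels, and an embryo of a K36M female could have inherited either *H3f3b* allele. Whether replicates came from different females was not stated, so the errors cover the spread between these libraries.

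During growth an oocyte stores RNA for the days when its genome is silent. This maternal RNA is degraded through maturation and after fertilisation, while the embryo starts its own transcription, in the mouse mainly in the two-cell stage. A transcript present at both stages can therefore be inherited, newly made or both. K36M is a dominant form of H3.3 that lowers methylation of lysine 36 of histone H3, a mark laid down over gene bodies and intergenic domains. All 4 genes encode proteins of different machinery. MTUS1 is a scaffold protein of microtubules, also known as an interactor of the angiotensin type 2 receptor. MKLN1 (muskelin) is a kelch-repeat subunit of the CTLH ubiquitin ligase, known from fly embryos for the removal of maternal proteins. OSBPL8 (ORP8) is a lipid transfer protein of the endoplasmic reticulum that exchanges phosphatidylserine for phosphatidylinositol 4-phosphate at contacts with the plasma membrane. ZFP534 belongs to the KRAB zinc finger proteins, DNA-binding proteins that typically recruit the corepressor TRIM28.

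The genes lie on 4 chromosomes in the mouse genome build GRCm38.p6. *Mtus1* (gene ID 102103) spans chr8:40990912-41133983 on the minus strand. *Mkln1* (27418) spans chr6:31398828-31516809 and *Osbpl8* (237542) spans chr10:111164742-111297249, both on the plus strand. *Zfp534* (100503584) spans chr4:147674225-147702631 on the minus strand, within a cluster of zinc finger genes. The union of annotated exons made 25 blocks in *Mtus1*, 18 in *Mkln1*, 26 in *Osbpl8* and 4 in *Zfp534*.

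The promoters of *Mkln1*, *Osbpl8* and *Zfp534* are shown to let their start regions be compared, since the genes were chosen together. RefSeq windows from 250 bases before to 50 after the start, 300 bases in all, were held for 3 of the 4 genes, and each CG dinucleotide is in capitals. They lie at chr6:31398578-31398877 on the plus strand, chr10:111164552-111164851 on the plus strand and chr4:147702582-147702881 on the minus strand, and read 5′ to 3′:
Mkln1: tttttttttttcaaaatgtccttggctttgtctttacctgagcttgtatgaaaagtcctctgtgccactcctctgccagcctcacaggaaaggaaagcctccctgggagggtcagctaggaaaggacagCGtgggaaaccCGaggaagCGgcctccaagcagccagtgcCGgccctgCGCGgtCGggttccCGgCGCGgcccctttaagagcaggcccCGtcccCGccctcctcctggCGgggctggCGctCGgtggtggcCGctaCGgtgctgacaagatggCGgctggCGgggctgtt
Osbpl8: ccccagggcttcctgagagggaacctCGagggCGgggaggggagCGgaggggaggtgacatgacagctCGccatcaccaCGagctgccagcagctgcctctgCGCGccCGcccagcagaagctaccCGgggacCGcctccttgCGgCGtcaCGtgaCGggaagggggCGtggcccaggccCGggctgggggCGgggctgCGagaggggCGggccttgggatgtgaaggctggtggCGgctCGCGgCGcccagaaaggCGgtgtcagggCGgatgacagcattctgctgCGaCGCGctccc
Zfp534: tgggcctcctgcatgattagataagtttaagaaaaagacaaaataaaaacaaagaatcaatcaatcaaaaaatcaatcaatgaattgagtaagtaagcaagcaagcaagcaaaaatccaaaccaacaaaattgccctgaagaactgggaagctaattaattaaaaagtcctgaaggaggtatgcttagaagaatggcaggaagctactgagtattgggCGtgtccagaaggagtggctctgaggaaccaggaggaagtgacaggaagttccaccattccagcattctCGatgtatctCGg

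The *Osbpl8* window held 28 CG and the *Mkln1* window 19, more than 85.8% and 71.9% of the 32851 promoter windows, whose median was 7. The *Zfp534* window held 3 CG, and 23.3% of windows held fewer. Its GC content was 40.0%, against 62.3% for *Mkln1* and 72.7% for *Osbpl8*. On both strands, the letters GGGCGG occurred 5 times in *Osbpl8*, once in *Mkln1* and not in *Zfp534*, and 35.7% of all windows held them. The letters CCAAT occurred once, in *Zfp534* (37.4% of all windows), CACGTG once, in *Osbpl8* (7.15%), and TATAAA in none of the 3 windows (13.6%). No motif of these 4 was found in all 3 windows, and these matches describe letters, not binding sites.

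All values are in TPM, a share of a library's RNA corrected for transcript length, so a lower value is a smaller share and not a count of molecules. In a pool of oocytes, less RNA in each cell and fewer cells with the RNA cannot be told apart. TPM does not keep the number of reads behind a value, and read totals were not used here. The number of genes above 0 ranged from 16707 to 18559 in the FGO libraries, from 12115 to 17329 in the 7 control embryos and from 10894 to 14879 in the 8 embryos from K36M oocytes. The median over the embryos was 14790 for control and 12990 for K36M, and the part of this difference in the results below was not tested.

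*H3f3b*, the gene that carries the mutation, was measured at 264.7, 306.7 and 308.0 TPM in control FGOs and at 376.8, 399.3 and 418.3 TPM in K36M FGOs. The K36M libraries lay above the controls, but gene-level TPM does not separate the mutant allele and the difference did not pass the test across all genes (log2 difference 0.44 ± 0.086 SE, adjusted p = 0.281 in limma). In the embryos *H3f3b* ranged from 301.2 to 967.5 TPM in controls and from 385.5 to 986.0 TPM after K36M.

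*Mtus1* was the most abundant of the 4 genes at every stage. Control FGOs held 1527, 1538 and 1578 TPM of it and K36M FGOs held 1245, 1236 and 1154 TPM. The groups did not overlap, and the K36M mean was 21.7% lower (log2 difference −0.35 ± 0.060 SE, n = 3 and 3). The control embryos ran from 702.9 through a median of 803.8 to 1637 TPM, and the embryos from K36M oocytes from 290.4 through 397.7 to 656.4 TPM. Every K36M embryo was again below every control embryo, with a mean 53.8% lower (log2 difference −1.09 ± 0.22 SE, n = 8 and 7). Within the control embryos, replicates 1 and 6 stood high, at 1209 and 1637 TPM, and the other 5 lay between 702.9 and 888.4 TPM.

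*Mkln1* had the largest relative difference of the 4 genes in the embryos. It was measured at 170.1, 210.9 and 172.6 TPM in control FGOs and at 149.0, 121.3 and 121.1 TPM in K36M FGOs, without overlap. The K36M mean was 29.3% lower (log2 difference −0.50 ± 0.12 SE). In control embryos the lowest value was 16.63 TPM, the median 38.06 TPM and the highest 72.98 TPM. After K36M the lowest was 3.281 TPM, the median 8.52 TPM and the highest 14.63 TPM. The groups again did not overlap, although the gap between the lowest control and the highest K36M embryo was narrow, and the K36M mean was 76.4% lower (log2 difference −1.99 ± 0.53 SE). Values spread widely within each group, by 4.39-fold from lowest to highest control embryo and by 4.46-fold from lowest to highest K36M embryo.

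*Osbpl8* varied least within the groups of embryos. Control FGOs held 377.6, 353.9 and 355.7 TPM and K36M FGOs held 302.4, 285.2 and 263.7 TPM, which did not overlap. The K36M mean was 21.7% lower (log2 difference −0.35 ± 0.079 SE). Control embryos ran from 390.2 through a median of 414.5 to 576.0 TPM, and K36M embryos from 204.3 through 304.3 to 431.3 TPM. The embryo groups overlapped in 1 embryo: K36M replicate 3, at 431.3 TPM, lay above 4 of the 7 controls, while the other K36M embryos were all below the lowest control. The K36M mean was 32.3% lower (log2 difference −0.58 ± 0.20 SE), the smallest difference of the 4 genes in embryos.

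*Zfp534* was the least abundant of the 4 genes in FGOs, and the one whose level was higher in control embryos than in control FGOs by the most. It was measured at 49.25, 38.14 and 56.48 TPM in control FGOs and at 31.38, 33.63 and 29.03 TPM in K36M FGOs. These groups did not overlap, and the K36M mean was 34.6% lower (log2 difference −0.58 ± 0.16 SE). Control embryos ran from 121.0 through a median of 200.6 to 395.5 TPM, with replicate 1 standing high, above the next at 218.2 TPM. The K36M embryos ran from 14.96 through a median of 58.34 to 152.6 TPM. They lay in a lower set and a higher set: replicates 1, 2, 3, 4 and 8 were between 14.96 and 60.88 TPM, whereas replicates 5, 6 and 7, at 142.4 to 152.6 TPM, were above control replicates 2 and 6. The K36M mean was 60.0% lower (log2 difference −1.55 ± 0.43 SE, and −1.38 without control replicate 1), and the highest K36M embryo held 10.2 times the TPM of the lowest.

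**Figure D1:**
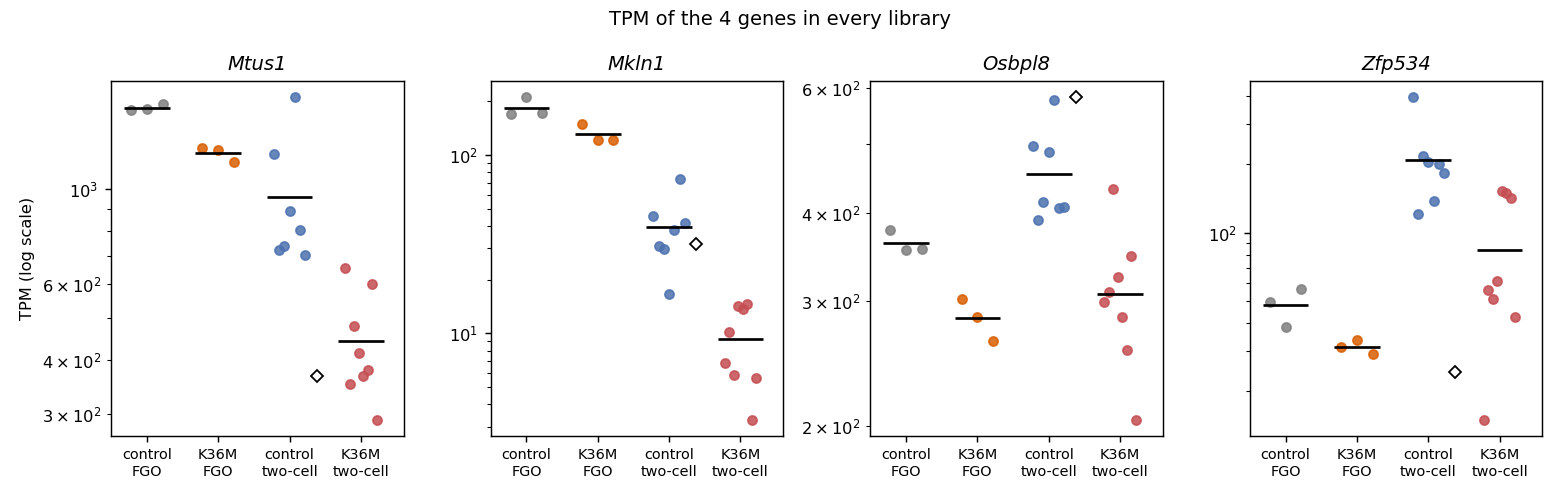
TPM on a log axis of each gene in every library, by group, with the group mean as a bar. Filled points are the 21 libraries used, and the open diamond is control embryo replicate 4, which was set aside. *Mtus1* and *Mkln1* groups do not overlap at either stage, while *Osbpl8* overlaps in 1 K36M embryo and *Zfp534* in 3.

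All 4 genes had FGO groups that did not overlap, and the same was true of 8.17% of the 13775 genes tested in FGOs in the lower direction, and of 7.46% in the higher. In embryos 2 of the 4 genes, *Mtus1* and *Mkln1*, did not overlap in the lower direction, against 0.0922% of the 17362 genes tested. Since the genes were selected on these differences, the shares are background and carry no test. Across all genes, the test on log2(TPM + 1) with limma called 1 gene lower in K36M FGOs at an adjusted p under 0.05 (0.00726% of those tested), which was *Cdo1*, named here after its value was seen. That count rested on single libraries: it was 0 to 300 with 1 left out, and the 300 (191 higher and 109 lower) came without K36M replicate 1. It called 0 of 17362 genes in embryos (0%), where 1129 genes (6.5%) were lower and 209 (1.2%) higher at an unadjusted p under 0.05. With all libraries used, none of the 4 genes was among the calls at either stage.

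A total of 12735 genes were tested at both stages, and 3877 of them (30.4%) had lower means after K36M at both. Groups without overlap in the lower direction at both stages occurred for 4 genes, *Mtus1*, *Mkln1*, *Fbxl8* and *Zmiz1*, the last pair named after the values were seen. The median log2 difference over all genes was 0.013 in FGOs and −0.26 in embryos, where 63.8% of genes were below 0. Quantile normalisation of the embryos brought that median to −0.013 and left *Mtus1* at −1.18, *Mkln1* at −1.78, *Osbpl8* at −0.64 and *Zfp534* at −1.52.

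**Figure D2:**
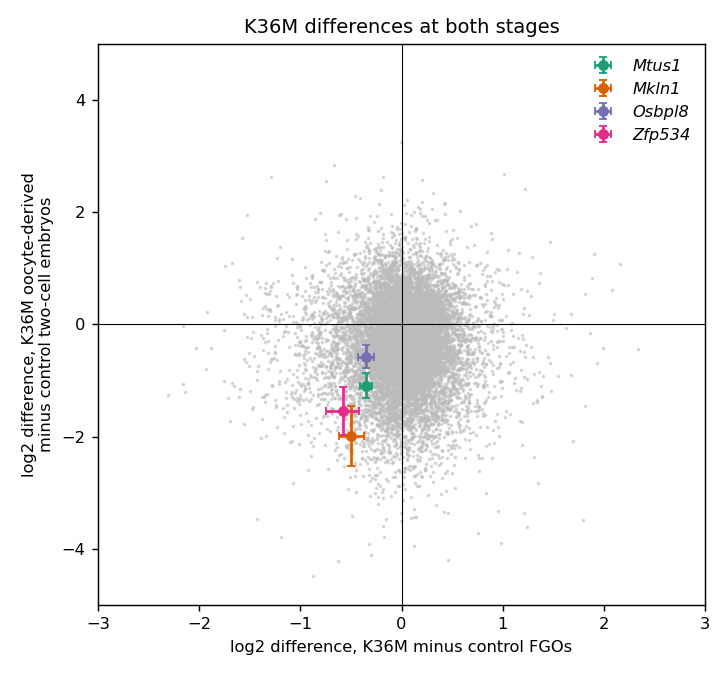
Log2 difference between K36M and control in FGOs (x axis) and in two-cell embryos (y axis) for the 12735 genes tested at both stages (grey) and the 4 genes (colours, bars ± SE). The 4 genes lie in the lower left quadrant by choice. The grey points are centred near 0 in FGOs and at −0.26 in embryos.

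The libraries that share these differences also differed in other RNAs. Of 12 oocyte transcripts taken as maternal markers (*Mos*, *Zp1*, *Zp2*, *Zp3*, *Gdf9*, *Btg4*, *Oosp1*, *Bmp15*, *Nlrp5*, *Padi6*, *Zar1* and *Ooep*), 10 had lower means in K36M FGOs, 7 of them without overlap, and *Mos* and *Zar1* were higher without overlap. Over all genes 8.17% were lower and 7.46% higher without overlap. None passed the limma test in FGOs, where 7 were lower and 2 higher at an unadjusted p under 0.05, against 5.34% and 5.15% of all genes. Their median log2 difference was −0.18, and their summed level was 25850 to 25980 TPM in control FGOs and 22860 to 24520 TPM in K36M FGOs. The log2 differences of the 4 genes in FGOs, from −0.58 to −0.35, were all below that median, whereas *Oosp1*, which encodes an oocyte-secreted protein, was at −0.45. The part of this shift in the 4 genes was not tested.

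In embryos the maternal markers and 12 transcripts of the activated two-cell genome (among them *Zscan4d*, *Zfp352*, *Obox3* and *Trim43b*) overlapped between the groups. The mean log2(TPM + 1) of the maternal list was 5.86 to 7.38 in control and 5.92 to 7.32 in K36M embryos, and that of the two-cell list 4.93 to 6.92 and 4.54 to 6.94. Neither list had a gene past the limma test between the embryo groups. At an unadjusted p under 0.05, 1 of the 12 maternal genes tested was higher and 1 lower, and 1 of 11 two-cell genes was lower. Over all genes in embryos, 1.2% were higher and 6.5% lower at that level.

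Markers of blood, stroma and cumulus cells were low in FGOs, while some granulosa markers were present. The 5 blood markers summed to at most 0.033 TPM in control and 0.38 TPM in K36M FGOs, with *Hba-a1*, *Hba-a2* and *Cd52* at 0 in all 6. The 5 stroma markers summed to 2.07 to 5.27 and 1.55 to 5.72 TPM, and the 4 cumulus markers to 2.11 to 3.01 and 1.16 to 3.15 TPM. The 8 granulosa markers summed to 116 to 132 and 125 to 192 TPM, most of it *Nr5a2*, at a mean of 71.0 and 118 TPM. The next highest was *Cyp19a1*, at a mean of 25.2 TPM in control and 24.9 TPM in K36M FGOs. In embryos the granulosa sum was 138 to 254 TPM in controls and 70.9 to 423 TPM after K36M. Most of it was *Nr5a2*, at a mean of 174 and 201 TPM, while *Cyp19a1* was at 0.804 and 1.06 TPM. The source of this *Nr5a2* RNA was not tested. The blood, stroma and cumulus sums reached 21.1, 25.5 and 67.3 TPM in controls and 59.5, 57.4 and 33.5 TPM after K36M. No marker of these lists passed the limma test between K36M and control at either stage. At an unadjusted p under 0.05 there was 1 granulosa gene, higher, in FGOs and 0 in embryos. Over all genes, 5.34% were lower and 5.15% higher at that level in FGOs, and 6.5% and 1.2% in embryos.

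The change from FGO to two-cell embryo was not the contrast that chose the genes and was tested in each genotype. It uses the libraries of that choice, which favoured high control and low K36M values at both stages. The p-values of these genes, here and below, are therefore not independent of the choice. The contrast after K36M equals that in control plus the embryo difference minus the FGO difference. What differs between the genotypes here is thus contained in the choice and is not read as a result. The change from FGO to embryo separated the genes into a pair of RNAs that fell, an RNA that did not pass the test and an RNA that rose in control. *Mkln1* fell the most, with a log2 difference of −2.31 ± 0.49 SE in control (adjusted p = 0.00109, limma) and −3.80 ± 0.48 SE after K36M (adjusted p = 1.92e-06). Its mean of 184.5 ± 22.9 TPM (SD, n = 3) in control FGOs compares with 39.3 ± 17.6 TPM (SD, n = 7) in control embryos, and 131 ± 16.1 TPM with 9.30 ± 4.49 TPM (SD, n = 8) after K36M. *Mtus1* fell by 0.76 ± 0.24 SE on the log2 scale in control (adjusted p = 0.0232) and by 1.499 ± 0.24 SE after K36M (adjusted p = 4.27e-05). The control call was lost when any 1 of the 3 control FGO libraries was left out (adjusted p = 0.0754 to 0.084) and under quantile normalisation (log2 difference −0.35, adjusted p = 0.322). In the direction of these falls, 13.2% of the 17358 genes tested were called in control and 18.6% after K36M.

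*Osbpl8* did not pass the test in either genotype. Its log2 difference from FGO to embryo was 0.31 in control (95% interval −0.11 to 0.74, adjusted p = 0.282) and 0.087 after K36M (−0.33 to 0.50, adjusted p = 0.785). Means were 362.4 ± 13.2 TPM in control FGOs and 454.0 ± 68.2 TPM in control embryos, and 283.8 ± 19.4 and 307.3 ± 66.6 TPM after K36M. A difference of the size seen for *Mkln1* lay outside both intervals, but the sign depended on scaling, as median-of-ratios scaling gave −0.0083 in control and −0.081 after K36M.

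*Zfp534* rose in control embryos, from 48.0 ± 9.24 TPM (SD, n = 3) to 208.9 ± 89.8 TPM (SD, n = 7), a log2 difference of 2.02 ± 0.53 SE (adjusted p = 0.00659, limma). In this direction 13.4% of genes were called. With the embryo that had been set aside included, the difference was 1.65 and did not pass (adjusted p = 0.0649). After K36M the mean went from 31.4 ± 2.30 to 83.7 ± 55.2 TPM, and the difference of 1.06 did not pass the test (95% interval −0.022 to 2.14, adjusted p = 0.137), where 10.8% of genes were called higher.

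Set beside the marker lists, *Mkln1* fell within the range of maternal RNA and the other 3 genes did not. All 12 maternal markers fell from FGO to embryo in both genotypes, by a median log2 difference of −3.96 in control (range −5.65 to −1.78) and −4.11 after K36M (−6.77 to −1.502). *Mkln1* at −2.31 lay above 11 of the 12 in control, and at −3.80 above 9 of the 12 after K36M. *Mtus1*, at −0.76 and −1.499, lay above all 12 in both genotypes, though by less than its error after K36M. Over all genes, 13.2% were called lower and 13.4% higher in control, and 18.6% and 10.8% after K36M. Of 11 two-cell transcripts tested, 10 rose in each genotype. The median log2 difference of all 11 was 4.67 in control (range 1.93 to 7.90), the lowest being *Tcstv1*, which did not pass the test (adjusted p = 0.126). *Zfp534* at 2.02 lay above 1 of these 11 in control and, at 1.06, below all 11 after K36M. *Osbpl8* lay between the lists in both genotypes.

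**Figure D3:**
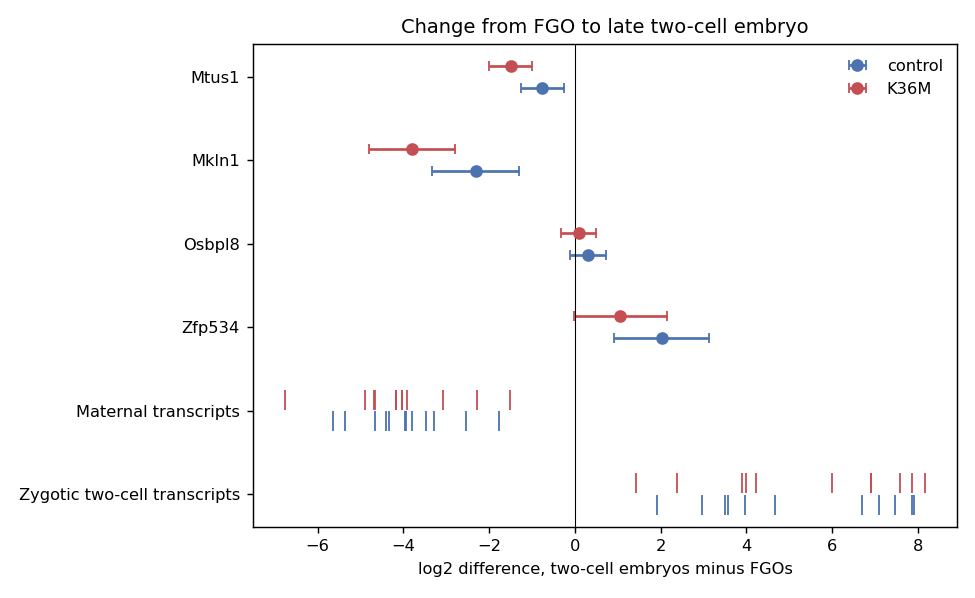
Log2 difference between two-cell embryos and FGOs in control (blue) and K36M (red) libraries, with 95% intervals for the 4 genes and 1 tick for each gene of the maternal and two-cell lists. *Mkln1* lies among the maternal ticks, *Osbpl8* near 0 and *Zfp534* near the lowest two-cell ticks. *Mtus1* lies to the right of the maternal ticks in control and at the edge of their range after K36M.

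These stage differences compare shares of RNA, and the embryo libraries were single embryos amplified for more cycles than the pooled FGOs, so stage and library preparation cannot be told apart. At a single time, inherited and newly made RNA of a gene cannot be told apart from its TPM, and no allele counts were used here. The *Zfp534* RNA of control embryos exceeded that of control FGOs as a share in every one of the 7 embryos, whose lowest value, 121.0 TPM, was above the highest FGO value of 56.48 TPM, and 14.1% of genes were higher without overlap in this comparison. All *Mkln1* values in embryos, at most 72.98 TPM, were below all values in FGOs, at least 121.1 TPM, and 18.2% of genes were lower without overlap in control and 17.2% after K36M.

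In the embryo set aside from the controls, the 4 genes did not all lie on the same side of the other controls. Its *Mkln1*, 31.51 TPM, was above 3 of the 7 other controls and above all 8 K36M embryos. Its *Osbpl8*, 582.1 TPM, was above every other embryo. Its *Mtus1*, 367.6 TPM, and its *Zfp534*, 24.38 TPM, were below all 7 controls and above 3 and 1 of the 8 K36M embryos. In this embryo the two-cell list had a mean log2(TPM + 1) of 2.19, below the lowest value of 4.54 in the other embryos, and the maternal list 7.68, above their highest of 7.38. With it included, the log2 differences between K36M and control embryos were −0.93 for *Mtus1*, −1.97 for *Mkln1*, −0.62 for *Osbpl8* and −1.18 for *Zfp534*.

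*Mtus1* and *Osbpl8* were each other's nearest gene among 12735 compared. After the mean of each stage was subtracted, their log2(TPM + 1) values correlated across the 21 libraries with Pearson r = 0.88, a description that includes the genotype difference for which both were chosen. With the mean of each of the 4 groups subtracted, r was 0.71, and 0.72 over the 15 embryos alone. For the other 5 pairs the group-centred r lay between −0.20 and 0.19. The values of a pair come from the same libraries and share their depth and scaling.

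The other genes with the most similar patterns were *Impact* (r = 0.87) and *Herc2* (0.87) for *Mtus1*, and *Fmnl3* (0.87) and *Pcdh9* (0.84) for *Osbpl8*. They were *Mapkbp1* (0.82), *Arhgef10l* (0.81) and *Gm13375* (0.81) for *Mkln1*, and *Cmtm8* (0.85), *Hjurp* (0.84) and *Taf8* (0.83) for *Zfp534*. *Herc2* was not lower in K36M FGOs, at 131 ± 6.24 TPM in control and 141 ± 5.79 TPM in K36M FGOs (SD, n = 3), but at 145 ± 35.2 TPM in control (n = 7) and 90.9 ± 22.3 TPM in K36M embryos (n = 8). *Pcdh9*, which encodes a protocadherin, had lower means after K36M at both stages, at 117 and 89.9 TPM in FGOs and 55.4 and 24.2 TPM in embryos. Of the 10 similar genes other than *Mtus1* and *Osbpl8*, 7 had a lower mean in K36M than in control FGOs and 3 a higher one (*Herc2*, *Mapkbp1* and *Taf8*), with no test of these differences. Among the 7, *Arhgef10l* was nearly equal, at 5.317 TPM in control and 5.309 TPM in K36M FGOs. Over all genes tested in FGOs, 47.9% had a log2 difference below 0. Similarity was scored with the genotype difference left in, so this direction is partly contained in the choice.

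Of 11 further genes of the CTLH ligase complex tested, 1 was below 0 in FGOs (47.9% of all genes were), with a median log2 difference of 0.066 against 0.013 over all genes. *Rmnd5a* (0.45), *Ranbp10* (0.36) and *Gid4* (0.25) were higher in K36M FGOs without overlap (7.46% of all genes were), the first a RING subunit and the last the substrate receptor. The most abundant, *Ranbp9* and *Ypel5*, had log2 differences of 0.059 and 0.0062. In embryos 8 of the 11 were below 0 (63.8% of all genes were), with a median of −0.16 against −0.26 over all genes, and none of the groups was without overlap. None of these genes passed the limma test at either stage. At an unadjusted p under 0.05 there was 1 higher in FGOs and 1 lower in embryos, against 5.15% and 6.5% of all genes. From control FGO to embryo 5 of the 11 rose (*Rmnd5a*, *Rmnd5b*, *Ranbp10*, *Gid4* and *Wdr26*) and 2 fell (*Ypel5* and *Ube2h*), while 13.4% of all genes were called higher and 13.2% lower. *Ube2h*, the ubiquitin-conjugating enzyme of the complex, fell by 2.22 on the log2 scale in control (adjusted p = 0.000225), near the value of *Mkln1*.

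In the OSBP-related family, 1 of 9 other members tested was below 0 in FGOs (*Osbpl7*, −0.37), where 47.9% of all genes were, with a median of 0.072. In embryos 7 of 11 were below 0, near the 63.8% of all genes, with a median of −0.015. *Osbpl9* and *Osbpl11*, the most abundant in control FGOs, had log2 differences of 0.083 and 0.072 in FGOs and of −0.015 and 0.014 in embryos. No family member had groups without overlap, none passed the limma test, and none had an unadjusted p under 0.05 at either stage. Between stages in control, *Osbpl6* (3.55, adjusted p = 0.000671) and *Osbpl7* (2.31, adjusted p = 0.026) rose, *Osbpl10* (−2.47, adjusted p = 0.012) fell and 8 did not pass, while 13.4% of all genes were called higher and 13.2% lower.

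Among genes of endoplasmic reticulum contacts and phosphoinositide metabolism, 6 of 15 tested were below 0 in FGOs (median 0.045) and 11 of 16 in embryos (median −0.26, the same as over all genes), against 47.9% and 63.8% of all genes. *Sacm1l*, the phosphatase that breaks down phosphatidylinositol 4-phosphate, was lower without overlap in embryos, at a mean of 30.4 TPM in control and 3.94 TPM after K36M (log2 difference −2.98, adjusted p = 0.254; 0.0922% of all genes were lower without overlap), while in FGOs the log2 difference was −0.060. *Ptdss2*, a phosphatidylserine synthase, was higher without overlap in FGOs (log2 difference 0.62, adjusted p = 0.408), as were 7.46% of all genes. The contact proteins *Vapa* and *Esyt2* were at 0.045 and 0.038 in FGOs and at −0.70 and −0.89 in embryos, on the log2 scale. None of these genes passed the limma test, and at an unadjusted p under 0.05 there was 1 higher in FGOs and 2 lower in embryos, against 5.15% and 6.5% of all genes.

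Among microtubule genes tested beside *Mtus1*, 5 of 13 were below 0 in FGOs (median 0.028) and 9 of 13 in embryos (median −0.11), against 47.9% and 63.8% of all genes. In FGOs 1 of the 13 was lower and 1 higher without overlap, near the 8.17% and 7.46% of all genes. *Mapre3*, a microtubule plus-end protein, was lower without overlap in FGOs, at 12.4 TPM in control and 4.84 TPM after K36M as means (log2 difference −1.10, adjusted p = 0.413), and its embryo means were 12.2 and 0.651 TPM with overlap (−2.10, adjusted p = 0.566). *Clasp2* was higher without overlap in FGOs (0.17) and at −0.59 in embryos. The most abundant, *Tacc3* and *Kif2c*, were at 0.065 and 0.11 in FGOs. *Agtr2*, the receptor for which MTUS1 was named an interactor, was under the minimum level, with group means of at most 0.570 TPM. None passed the limma test. At an unadjusted p under 0.05 there was 1 lower in FGOs, and 1 higher and 2 lower in embryos. Over all genes, 5.34% were lower at that level in FGOs, and 1.2% higher and 6.5% lower in embryos.

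Of 10 genes listed with KRAB zinc finger repression, mostly cofactors, 4 were below 0 in FGOs (median 0.068, against 0.013 over all genes), near the 47.9% of all genes. In embryos 2 were below 0, *Uhrf1* and *Zfp57*, where 63.8% of all genes were, with a median of 0.29 against −0.26 over all genes. *Trim28* was at 0.31 in FGOs and 0.46 in embryos, and the most abundant, *Zfp57*, itself a KRAB zinc finger gene, and *Uhrf1*, at −0.040 and −0.10 in FGOs and −0.24 and −0.36 in embryos. *Smarcad1*, 1 of the 10, was lower without overlap in FGOs (−0.19), near the 8.17% of all genes. None of the 10 passed the limma test, and at an unadjusted p under 0.05 there was 1 higher in FGOs and 0 in embryos. Over all genes, 5.15% were higher at that level in FGOs, and 6.5% lower and 1.2% higher in embryos.

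**Figure D4:**
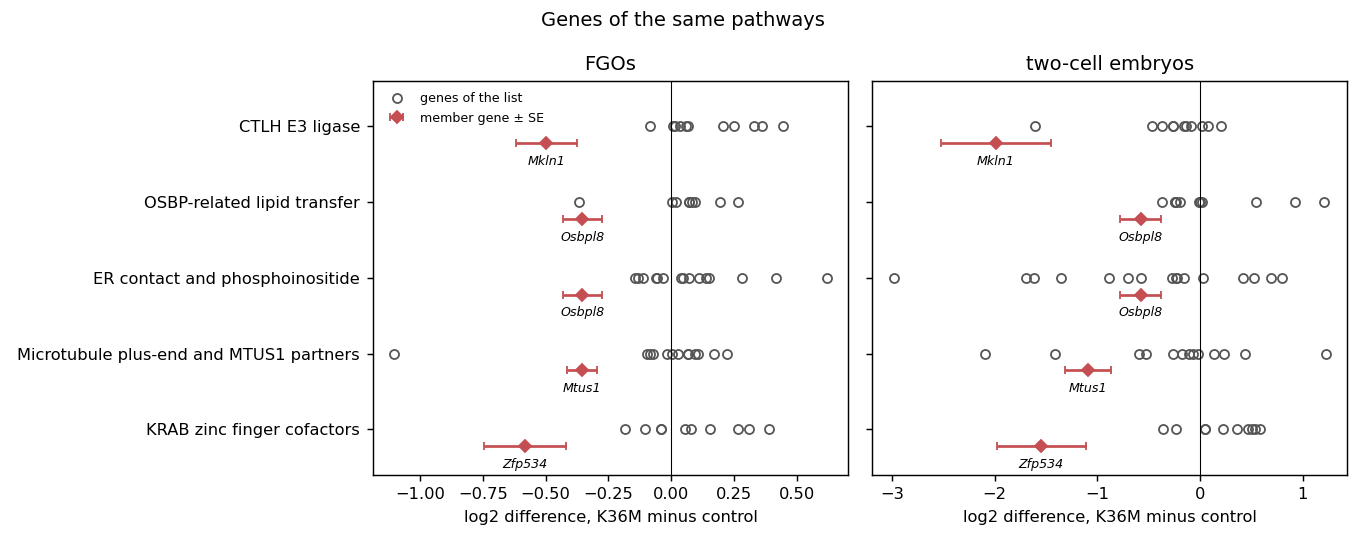
Log2 difference between K36M and control in FGOs (left) and two-cell embryos (right) for each gene of 5 lists (open circles) with the member gene of the same pathway (red, ± SE). The scales of the panels differ. The 4 genes lie to the left of most circles, by choice, and the median of every list in FGOs lies between 0.028 and 0.072.

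*Zfp534* has near copies, and its values are uncertain where reads could belong to more than 1 gene. Of the 31-base words in its transcript, 83.0% occur in transcripts of other genes, and 41 genes each hold at least 1% of them. *Zfp987* holds 66.9%, *Zfp988* 52.5% and *Zfp990* 34.7%. The open reading frames of *Zfp534* (1986 bases) and *Zfp987* (1902 bases), from the GENCODE M21 transcripts, were identical at 96.3% of 1902 aligned bases, with a longest identical run of 343 bases. The stretch from base 716 to base 835 of both reading frames is shown as an example of how closely they match, with 4 differing bases in capitals:
Zfp534: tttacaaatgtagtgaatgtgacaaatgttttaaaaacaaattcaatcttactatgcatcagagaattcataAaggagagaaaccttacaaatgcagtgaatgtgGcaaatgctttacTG
Zfp987: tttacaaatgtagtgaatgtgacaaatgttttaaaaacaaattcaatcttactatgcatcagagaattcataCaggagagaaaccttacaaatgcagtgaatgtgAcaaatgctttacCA

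These 3 genes were less abundant than *Zfp534* on average. *Gm8935*, which holds 64.3% of the words, had no TPM values, so its reads could not be followed. The other genes that share words with *Zfp534* were not examined as near copies. In control FGOs the means were 4.80 ± 2.27 TPM for *Zfp987*, 1.56 ± 0.444 TPM for *Zfp988* and 6.05 ± 2.36 TPM for *Zfp990* (SD, n = 3), against 48.0 TPM for *Zfp534*. In control embryos they were 36.4 ± 27.1, 35.4 ± 28.1 and 23.9 ± 11.4 TPM (SD, n = 7), against 208.9 TPM. The K36M log2 differences of *Zfp987* were −0.31 in FGOs and −0.77 in embryos, those of *Zfp988* −0.11 and −1.21, and those of *Zfp990* −0.21 and −0.24. All these groups overlapped and none passed the limma test (adjusted p = 0.733 to 0.928). From control FGO to embryo *Zfp987* (2.41, adjusted p = 0.0327) and *Zfp988* (3.25, adjusted p = 0.0284) rose, as *Zfp534* did, and *Zfp990* did not pass (1.76, adjusted p = 0.0956).

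The genes next to *Zfp534* on chromosome 4 include further zinc finger genes. All 6 of its nearest genes in the table were tested in FGOs, and 5 were below 0, as were 47.9% of all genes. Of the 6, 3 were lower without overlap, as were 8.17% of all genes. *Zfp979*, 31.7 kb away, was at 204 ± 19.2 TPM in control and 145 ± 9.23 TPM in K36M FGOs (log2 difference −0.49, adjusted p = 0.281), and at −0.33 with overlap in embryos. *Zfp985*, 89.0 kb away, was at 4.45 and 2.46 TPM in FGOs (−0.65, adjusted p = 0.467) and at 68.6 and 29.5 TPM in embryos (−1.32, adjusted p = 0.574). The pseudogene *Rps19-ps3* was at 2.56 and 1.03 TPM in FGOs, near the minimum level. *Zfp984* was at −0.57 and −0.84 and *Zfp982* at −0.11 and 0.17, in FGOs and embryos. *Zfp933* was at 0.14 and 1.46, on the other side of 0. From control FGO to embryo *Zfp982* (1.78, adjusted p = 6.25e-05), *Zfp985* (3.50, adjusted p = 0.000184) and *Zfp984* (1.66, adjusted p = 0.0207) rose like *Zfp534*. Whether these neighbours share words with *Zfp534* is not given here, so their values may not be separate from those of *Zfp534*.

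*Mtus1* overlaps the long non-coding RNA gene *B430010I23Rik* (chr8:41017738-41024216), which lies on the opposite strand and shares 612 exon bases with it. The RNA was at 116 to 124 TPM in control FGOs and 95.1 to 103 TPM in K36M FGOs, lower without overlap (log2 difference −0.25, adjusted p = 0.415). In embryos it ran from 13.6 to 111 TPM in control and from 11.5 to 109 TPM after K36M (−1.11, adjusted p = 0.623). The kit keeps strand, but the strand setting of the counting is not given in the sources used here, so reads of the 2 genes may not be separated. The level of *Mtus1*, 1548 ± 26.96 TPM in control FGOs, was far above that of the non-coding RNA. On the other side, *Pcm1*, which encodes a centriolar satellite protein, was at −0.19 in FGOs and −0.32 in embryos with overlap, and *Fgl1* was at −0.17 and −0.53.

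Of the neighbours of *Osbpl8*, 3 of 4 tested were below 0 in FGOs and 4 of 5 in embryos, none without overlap. Over all genes, 47.9% were below 0 in FGOs and 63.8% in embryos. *Mkln1os*, which starts next to *Mkln1* on the other strand, was low, at 2.99 and 2.61 TPM in control and K36M FGOs as means, and was the only 1 of 6 *Mkln1* neighbours tested in FGOs. *Bbs10* and *Nap1l1*, downstream of *Osbpl8*, were at −0.26 and −0.13 in FGOs and at −0.45 and 0.24 in embryos, and *Zdhhc17* at −0.016 and −0.51. *Csrp2* was at 0.11 in FGOs and −2.57 in embryos, where it was at 0 in 2 of 8 K36M embryos (adjusted p = 0.561). Over the 24 neighbours of the 4 genes, 14 were tested in FGOs and 17 in embryos. None passed the limma test, while 4 and 3 had an unadjusted p under 0.05. Over all genes, 5.34% were lower and 5.15% higher at that level in FGOs, and 6.5% and 1.2% in embryos. In FGOs 4 of the 14 neighbours were lower without overlap (8.17% of all genes), and in embryos 0 of the 17 (0.0922%).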

How the data were processed

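Values were the TPM of 26214 genes in 22 RNA libraries, deposited by the authors in 1 table. They trimmed reads with Trim Galore, aligned them to mm10 with HISAT2, removed ribosomal RNA reads with bedtools and counted with featureCounts. The gene annotation, transcript lengths and strand setting behind the TPM are not given in the sources used here. The count test of the study (edgeR) could not be run on TPM, which keeps no read numbers, so precision was read from the spread between libraries.

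The 4 genes, the gene lists and the tests were chosen with earlier results of these data known. Tests used limma 3.58.1 in R 4.3.3 (trended empirical Bayes) on log2(TPM + 1), for genes whose mean over the fitted libraries reached 1 TPM, with Benjamini-Hochberg adjustment at 0.05 over all genes tested. Log2 differences on this scale understate changes of low genes. K36M and control were compared in FGOs (3 and 3) and in embryos (8 and 7), and stages within genotype in 1 fit of 21 libraries. The fit was first tested on simulated data in which 200 genes differed. Alternatives were pseudocount 0.1, no minimum or a minimum of 5 TPM, quantile and median-of-ratios scaling, no trend, array weights and, where control embryos entered, including their replicate 4. For K36M against control they were also a replicate block and leaving out each library, and for the stages leaving out each FGO library and fits of only the groups compared.

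Named genes were the 4, *H3f3b*, the 3 most similar by Pearson r, 3 neighbours on each side and, of each list, genes called, otherwise the 2 most abundant in control FGOs, and genes without overlap. *Trim28*, *Osbpl7*, *Agtr2*, *Nr5a2*, *Tcstv1* and *Gm8935* fall outside this rule and were named after their values were seen. In the stage comparisons, called genes of a list were counted and some named. Promoters came from RefSeq (GRCm38.p6) and transcripts from GENCODE M21. Libraries with the same replicate number correlated weakly and were not treated as pairs outside the replicate block. Chromatin and methylation samples were not analysed here.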

Additional observations from a re-analysis of the deposited data

Results flagged for a closer look

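*Osbpl8* in control embryo replicate 4 was flagged because this embryo was outside the comparisons and, at 582.1 TPM, lay above all 7 control embryos that were used, the highest of which held 576.0 TPM. The difference was not tested, as it is 1 embryo.

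*Zfp534* in control embryo replicate 1 was flagged because, at 395.5 TPM, its gap to the next control embryo was 0.646 of the range of the group, above Dixon's limit of 0.568 for 7 samples. On the log2(TPM + 1) scale the gap was 0.503 of the range, under the limit. Without this embryo the log2 difference between K36M and control embryos was −1.38 in place of −1.55. The 4 genes in both embryo groups gave 8 sets of values, and no other embryo among them passed the limit on either scale. On a single scale of normally distributed values chance flags about 1 in 20 groups. Both scales were examined here, so the rate is higher. FGO groups of 3 were not examined.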

How the results depend on the processing

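The 4 genes were below 0 in both K36M comparisons under every alternative run. In FGOs the log2 differences ranged from −0.37 to −0.28 for *Mtus1* (lowest size under quantile normalisation), −0.60 to −0.40 for *Mkln1*, −0.40 to −0.30 for *Osbpl8* and −0.73 to −0.46 for *Zfp534*. In embryos they ranged from −1.18 to −0.92, −2.17 to −1.78, −0.65 to −0.47 and −1.72 to −1.18.

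The count of genes called in FGOs, 1, became 0 with pseudocount 0.1, without a minimum level, without the trend and with the replicate block, and ranged from 0 to 300 when 1 library was left out. The 300, 191 higher and 109 lower, came without K36M replicate 1, without control replicate 1 there were 2, and without control replicate 2 or 3 or K36M replicate 3 there were 0. In embryos the count of 0 became 5 without the trend and 1 with array weights, and ranged from 0 to 1 with 1 embryo left out (1 without K36M replicate 8), and the replicate block left it at 0. Deviations of libraries with the same replicate number correlated weakly (0.018 to 0.089 in FGOs and −0.10 to 0.098 in embryos). Control FGO replicates 1 and 3 and control embryo replicate 1 correlated most with the same number in K36M, and the other replicates with another number. This check is too coarse to show whether the numbers pair the libraries. From FGO to embryo, the 4615 genes called in control became 9730 with array weights and 2844 to 2877 without any 1 control FGO library, and the 5094 after K36M became 8527 and 3421 to 3478.

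*Osbpl8* from FGO to embryo changed sign under median-of-ratios scaling (−0.0083 in control and −0.081 after K36M) and, after K36M, under quantile normalisation (−0.063). Other calls lost or gained were *Mtus1* in control without the trend (adjusted p = 0.128) and *Zfp534* after K36M with array weights (1.12, adjusted p = 0.00842). The causes were not tested. The reads behind each value were not used, so no limit from depth is given.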
